A study of Rattus norvegicus with 30 samples.

Results

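The genes described here build ribosomes: they encode subunits of RNA polymerase I, nucleolar proteins, modification particles and assembly factors for the small and the large ribosomal subunit. They were followed in whole stomach, jejunum and colon of rats given irinotecan. A list of 42 such genes, named by symbol, was matched to probe sets that carry exactly 1 gene symbol, and each gene was represented by its brightest probe set over all arrays. This gave 41 genes of the 14217 genes with 1 symbol on the array. The gene left out, Npm1 (nucleophosmin), had 0 probe sets of its own and 3 shared with other symbols. Ranked by mean signal over the array, the 41 probe sets lay between percentiles 50.3 and 96.9.

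The animals were 30 female DA rats aged 10 weeks, 6 at each time. Those of the 1, 6, 24 and 72 h groups had a single intraperitoneal dose of irinotecan at 200 mg/kg under light halothane anaesthesia, and those of the 0 h group had no irinotecan. The labels do not say whether the 0 h rats were anaesthetised or sham injected. Irinotecan is the prodrug of a topoisomerase I inhibitor, and topoisomerase I is the enzyme that relaxes the coiling ahead of moving polymerases. Whole sections of each tissue were extracted, and 1 array held the RNA of 3 rats combined. With 2 arrays for every combination of tissue and time there were 15 groups and 30 arrays. All 3 tissues were taken from each rat. Nothing in the labels limits the RNA to 1 layer of the wall. Values are log2 signals, a difference of 1 is 2-fold, an error after ± is the standard error of a log2 difference from limma, and a difference passed where limma's p, adjusted by Benjamini-Hochberg over 31042 probe sets, was under 0.05. With pools of whole tissue, fewer cells of a type and less RNA per cell cannot be told apart.

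Ribosome assembly begins in the nucleolus, where RNA polymerase I transcribes the ribosomal RNA precursor. Small nucleolar ribonucleoproteins then modify it, box C/D particles by 2'-O-methylation and box H/ACA particles by pseudouridylation. The small-subunit processome and the large-subunit factors fold, cut and export the particles. Dividing crypt cells of the intestinal lining make many ribosomes, and the transcription factor MYC is known to drive many of these genes.

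Each tissue carried its own markers. The log2 of the summed signal of parietal and chief cell genes ranged from 15.05 to 15.38 on stomach arrays and from 8.79 to 9.12 on jejunum arrays, that of small-intestinal enterocyte genes 15.77 to 16.05 in the jejunum, and that of colonocyte genes 13.83 to 14.61 in the colon. Some arrays also carried transcripts of a neighbouring tissue. Pancreatic acinar genes summed to 17.19 on 72 h stomach array 1 against 14.07 on its partner, to 16.03 on 72 h colon array 2 against 10.80 and to 13.12 on 6 h colon array 1 against 11.21. Gastric transcripts were on both 24 h colon arrays, with the surface mucous gene Gkn1 at 10.14 and 9.89, and the chief cell gene Pgc stood at 13.67 on array 1 and 6.96 on array 2. Pgc was also at 9.76 on 72 h colon array 1, against 8.45 and 6.60 at 0 h. Squamous epithelium genes differed between stomach partners, with sums of 9.27 and 11.57 at 0 h, 12.27 and 11.00 at 24 h and 10.21 and 13.8 at 72 h. The 1 and 6 h stomach arrays lay between 10.03 and 10.44. The part of this difference in the stomach results was not tested. The GAPDH 3' signal exceeded the 5' signal by 0.816 on 24 h jejunum array 1 and by at most 0.557 on the other 29 arrays, that being 24 h stomach array 1. The 6 doubted arrays, left out together in an added fit, were array 1 of the 24 and 72 h stomach, array 1 of the 24 h jejunum, array 1 of the 6 and 24 h colon and array 2 of the 72 h colon. Replicate arrays correlated at 0.947 to 0.996 over all probe sets.

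In the jejunum at 72 h, 39 of 41 ribosome biogenesis genes rose against 0 h and 0 fell. Across all probe sets 11.9% were called higher in this comparison and 23.9% in either direction. The median difference of the 41 genes was 0.75, a fold of 1.68, against a median of -0.01 over all 14217 genes, and 6 genes rose 2-fold or more. The largest were Ddx21, Ncl, Pno1 and Ebna1bp2, and the smallest past the threshold was Rrp9. On all 41 genes both 72 h arrays lay above both 0 h arrays, which held for 29.7% of all probe sets. The GAPDH 3' excess also differed, at 0.164 and 0.147 at 0 h and 0.097 and -0.021 at 72 h. That of beta-actin was 0.863 and 1.06 at 0 h and 0.685 and 0.573 at 72 h. The part of these measures in the 72 h values was not tested. The map of differences from 0 h shows the 72 h jejunum as the column in which nearly every gene passed.

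**Figure D1:**
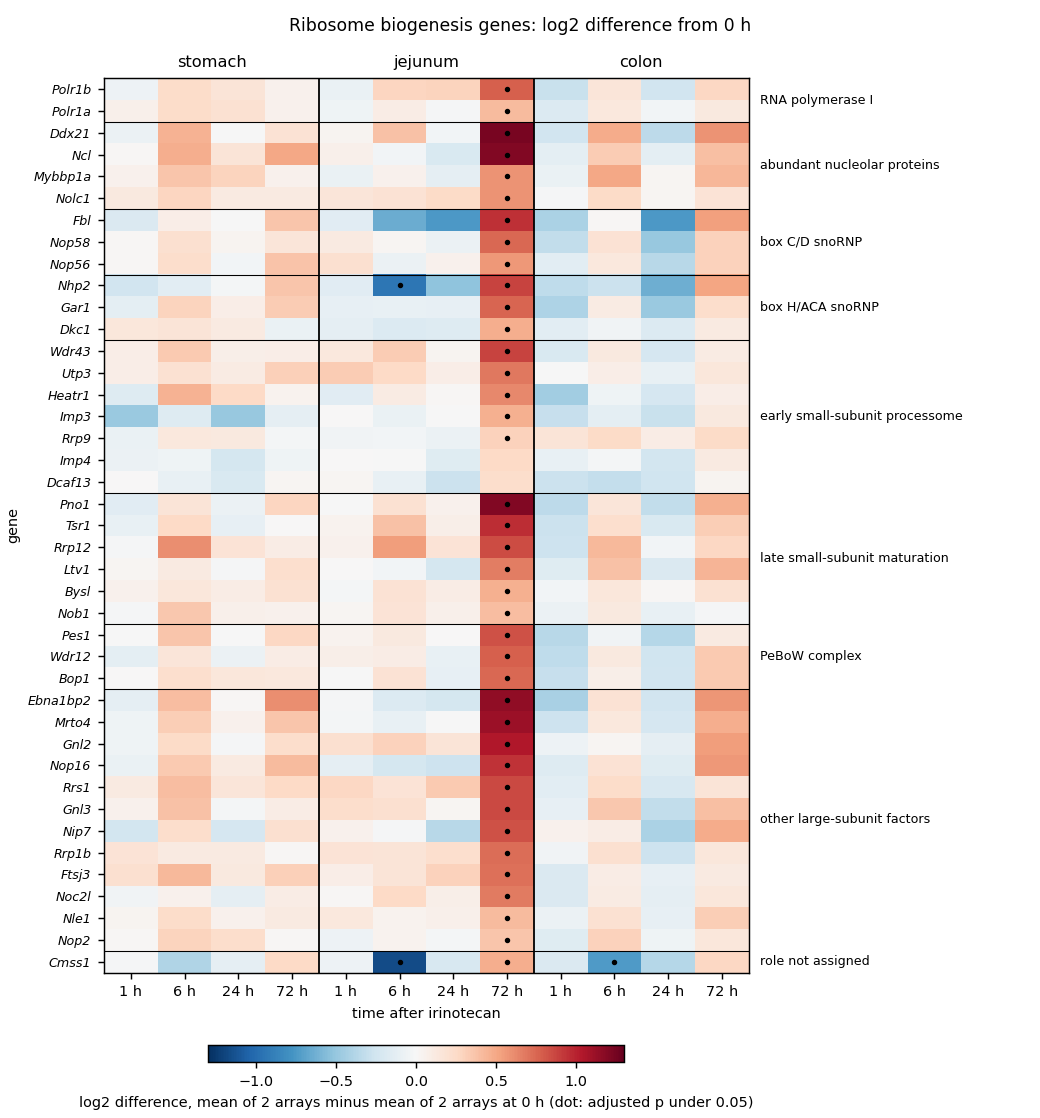
Log2 difference from 0 h of the 41 ribosome biogenesis genes (rows, by role) at 1, 6, 24 and 72 h in stomach, jejunum and colon (columns); colour gives the mean of 2 arrays minus the mean of the 2 arrays at 0 h, and a dot marks an adjusted p under 0.05. The 72 h jejunum column holds 39 dots, the 6 h jejunum column 2, the 6 h colon column 1 and the stomach columns 0.

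Among the abundant nucleolar proteins all 4 measured genes rose, with a median of 0.89. Ddx21, a DEAD-box RNA helicase of the nucleolus, read 8.90 and 8.79 at 0 h and 10.14 and 10.01 at 72 h (difference 1.23 ± 0.10, limma adjusted p = 0.000464). Ncl, which encodes nucleolin, a binder of nascent ribosomal RNA, read 10.11 and 10.02 at 0 h and 11.42 and 11.12 at 72 h (1.20 ± 0.12, limma adjusted p = 0.000733). For both genes the 72 h arrays lay above every other jejunum array. Mybbp1a, a nucleolar partner of MYB and p53, rose by 0.58, and Nolc1, a chaperone of small nucleolar particles, by 0.58. Both subunits of RNA polymerase I rose. Polr1a, the largest subunit, read 7.35 and 7.47 at 0 h and 7.78 and 7.87 at 72 h (0.41 ± 0.08, limma adjusted p = 0.0112), and Polr1b, the next largest, read 6.87 and 6.82 at 0 h and 7.69 and 7.56 at 72 h (0.78 ± 0.09, limma adjusted p = 0.00104). In both, the 2 groups of arrays stood apart.

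Both classes of modification particle rose, 3 of 3 genes in each. Fbl, the box C/D methyltransferase fibrillarin, read 9.96 and 9.73 at 0 h and 10.86 and 10.72 at 72 h (0.95 ± 0.30, limma adjusted p = 0.0479). Its scaffold partner Nop56 read 10.29 and 10.16 at 0 h and 10.77 and 10.80 at 72 h (0.56 ± 0.12, limma adjusted p = 0.0113), and Nop58, the other scaffold protein, rose by 0.75. Fbl had the largest error of the 41 genes in the jejunum, and its pass rests on a narrow margin. Dkc1, the pseudouridine synthase of box H/ACA particles, read 8.41 and 8.44 at 0 h and 9.03 and 8.77 at 72 h (0.47 ± 0.12, limma adjusted p = 0.0214). Its core partners Nhp2 and Gar1 rose by 0.88 and 0.76.

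Small-subunit genes of both stages rose, 11 of 13 in all. Of the 7 genes of the early processome, which gathers on the nascent precursor, 5 rose, with a median of 0.46. Wdr43 read 7.71 and 7.59 at 0 h and 8.48 and 8.58 at 72 h (0.88 ± 0.12, limma adjusted p = 0.00214). Heatr1 read 7.48 and 7.36 at 0 h and 8.02 and 8.06 at 72 h (0.63 ± 0.12, limma adjusted p = 0.00812). Utp3 rose by 0.69, Imp3 by 0.46 and Rrp9, a protein of the U3 particle, by 0.30. The 2 genes of the 41 that did not pass were of this stage, Imp4 at 0.26 ± 0.09 (limma adjusted p = 0.0689) and Dcaf13 at 0.23 ± 0.12 (limma adjusted p = 0.173). All 6 genes of late small-subunit maturation rose, with a median of 0.75. Pno1, which binds the maturing 18S end, read 7.31 and 7.31 at 0 h and 8.56 and 8.47 at 72 h (1.20 ± 0.08, limma adjusted p = 0.000259). Ltv1, which acts in the loading of Rps3, read 7.73 and 7.59 at 0 h and 8.37 and 8.28 at 72 h (0.66 ± 0.08, limma adjusted p = 0.00174). The others were Tsr1 at 0.96, Rrp12 at 0.85, Bysl at 0.46 and Nob1, the endonuclease of the last 18S cut, at 0.40. The difference between the early and the late medians was not tested.

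All 15 large-subunit genes rose. The PeBoW complex, which joins Pes1, Bop1 and Wdr12, had 3 of 3 genes higher, with differences between 0.75 and 0.83. Bop1 read 8.52 and 8.41 at 0 h and 9.29 and 9.13 at 72 h (0.75 ± 0.09, limma adjusted p = 0.00127). Wdr12 read 7.81 and 7.67 at 0 h and 8.51 and 8.52 at 72 h (0.77 ± 0.10, limma adjusted p = 0.00214). The other 12 factors ranged from 0.36 for Nop2, a ribosomal RNA methyltransferase, to 1.15 for Ebna1bp2, a partner of the assembling large subunit, which read 8.78 and 8.59 at 0 h and 9.94 and 9.73 at 72 h (1.15 ± 0.15, limma adjusted p = 0.00183). Mrto4, a paralogue of stalk protein P0 that holds its place during assembly, rose by 1.12, and the assembly GTPase Gnl2 by 1.05. Gnl3, nucleostemin, a GTPase known for its level in dividing progenitor cells, read 8.88 and 8.88 at 0 h and 9.65 and 9.82 at 72 h (0.86 ± 0.09, limma adjusted p = 0.000897). Rrs1, which helps place the 5S particle, had a mean of 7.98 ± 0.034 (SD, n = 2) at 0 h and read 8.80 and 8.88 at 72 h (0.86 ± 0.25, limma adjusted p = 0.0366). Its 24 h arrays, which enter the same estimate of the spread, were far apart, at 8.81 and 7.83. Cmss1, a gene with no role assigned here, rose by 0.47.

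**Figure D2:**
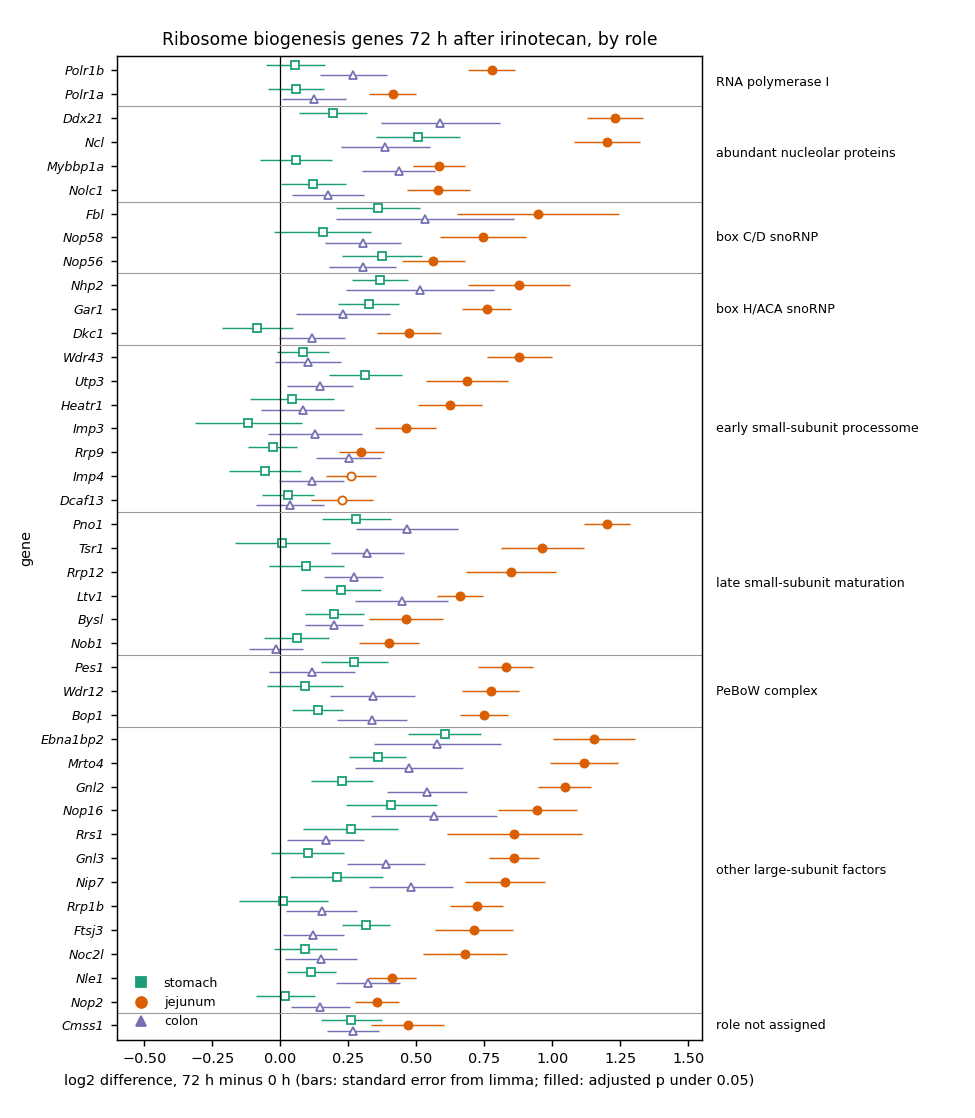
Log2 difference between 72 h and 0 h (horizontal axis) for each of the 41 genes, grouped by role, in stomach (squares), jejunum (circles) and colon (triangles); bars are limma's standard errors and filled symbols have an adjusted p under 0.05. The jejunum runs from 0.23 to 1.23 and lies right of the colon and the stomach for all 41 genes.

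Leaving out 1 array at a time lowered the count from 39 to 25 without 0 h array 1, 20 without 0 h array 2, 20 without 72 h array 1 and 23 without 72 h array 2. The 18 genes that passed whichever array was left out were Bop1, Ddx21, Ebna1bp2, Gar1, Gnl2, Gnl3, Ltv1, Mrto4, Mybbp1a, Ncl, Nop16, Pes1, Pno1, Polr1b, Rrp1b, Tsr1, Wdr12 and Wdr43. Other probe sets existed for 9 genes, 13 in all, of which 8 passed in the same comparison and 11 lay above 0. Those of Ddx21 (1.09) and Wdr43 (0.74) were close to the probe set used. The second probe set of Gnl2 lay at -0.04, and 2 of Rrp1b at 0.13 and -0.01, so these genes are uncertain. Nolc1 had others at 1.29, 0.84 and 0.02, and Rrp12 at 0.32 and 0.39.

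Promoter sequences are shown because these genes rose together at 72 h and because many promoters of ribosome biogenesis genes are known to hold an E-box, CACGTG, a palindrome read alike on both strands and bound by MYC and other basic helix-loop-helix factors. RefSeq windows of assembly GRCr8, 250 bases before to 50 bases after the start of transcription, were found for 36 of the 41 genes, and not for Wdr43, Dcaf13, Bop1, Rrs1 and Gnl2. The E-box was in 13 of the 36 windows (36.1%), in 32 of 112 windows of other ribosome biogenesis genes (28.6%), in 1097 of 11734 genes of the array (9.35%) and in 1943 of all 27457 genes with a window (7.08%). A second motif, CCGGAAG or its reverse complement, the core bound by ETS factors such as GABPA, was in 16 of the 36 (44.4%), 56 of 112 (50%), 15.4% of the array's genes and 9.63% of all genes. By their letters the motifs cannot overlap, and 7 of the 36 windows held both. The median GC content was 56.3% for the 36 windows and 60% for genes of the array, and the median number of CpG sites 21.5 and 19. For all genes with a window these medians were 52.3% and 7.5. Both motifs contain CG, so the set of all genes is not matched to the 36 in CpG sites. The jejunal difference at 72 h had a median of 0.83 (0.36 to 1.20) in the 13 genes with an E-box and 0.71 (0.26 to 1.23) in the 23 without, a description with no test. A match is a stretch of letters and shows no binding.

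In 6 of the 13 an E-box lay wholly before the start site. All 6 rose in the jejunum at 72 h, as did 39 of all 41 genes. The differences were 0.83 for Pes1, 0.86 for Gnl3, 0.66 for Ltv1, 0.58 for Mybbp1a, 0.47 for Dkc1 and 0.41 for Nle1. Nle1 is a WD-repeat factor of the large subunit. The 23 genes without an E-box had a median of 0.71. Each stretch below is 60 bases on the gene's strand, 5′ to 3′, with that E-box in capitals. Its first base lies 10 bases before the start in Nle1 (chr10:68340181-68340240, minus strand), 25 in Gnl3 (chr16:6219783-6219842, minus strand), 50 in Pes1 (chr14:83074269-83074328, plus strand), 61 in Ltv1 (chr1:9398586-9398645, minus strand), 156 in Mybbp1a (chr10:57555275-57555334, plus strand) and 184 in Dkc1 (chrX:157751440-157751499, plus strand). The window of Mybbp1a holds 2 E-boxes, the other beginning 1 base before the start and running across it.
Nle1: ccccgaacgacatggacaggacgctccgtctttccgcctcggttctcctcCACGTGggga
Gnl3: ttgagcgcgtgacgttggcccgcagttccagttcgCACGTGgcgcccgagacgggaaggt
Pes1: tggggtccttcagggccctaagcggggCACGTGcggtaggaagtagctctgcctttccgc
Ltv1: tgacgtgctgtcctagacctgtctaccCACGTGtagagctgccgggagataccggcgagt
Mybbp1a: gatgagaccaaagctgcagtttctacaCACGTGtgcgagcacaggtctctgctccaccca
Dkc1: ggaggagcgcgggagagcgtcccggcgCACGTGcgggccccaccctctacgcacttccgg

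Earlier times in the jejunum showed few changes. At 1 h, 0 of 41 genes passed limma's test, with 0.0354% of all probe sets called. An unadjusted p under 0.05 was found for 1 of the 41 genes and for 4.73% of all probe sets. At 6 h, 2 genes fell and 0 rose, with 1.19% of probe sets called lower, 2.3% higher and 3.49% in either direction, while the median of the 41 genes was 0.09. Cmss1 read 8.01 and 7.87 at 0 h and 6.72 and 6.82 at 6 h (-1.17 ± 0.13, limma adjusted p = 0.00544). Nhp2 read 10.38 and 10.23 at 0 h and 9.21 and 9.53 at 6 h (-0.94 ± 0.19, limma adjusted p = 0.0316). For both genes the 6 h arrays lay below the 0 h arrays, and both were again above the 0 h arrays at 72 h. Both calls were lost whichever of the 4 arrays was left out. With 24 h jejunum array 1 left out of the estimate of the spread, 3 genes passed as lower and 5 as higher.

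At 24 h, 0 of 41 genes passed in the jejunum by limma, and 0.409% of all probe sets were called, 0.319% higher and 0.0902% lower. An unadjusted p under 0.05 was found for 6 of the 41 genes and for 16% of all probe sets. The median was -0.01. The closest were Polr1b at 0.29 ± 0.09 (limma adjusted p = 0.166), Nhp2 at -0.52 ± 0.19 (limma adjusted p = 0.227) and Ltv1 at -0.23 ± 0.08 (limma adjusted p = 0.237). The pair of arrays disagreed most for Fbl, at 8.55 and 9.65, and array 1 was the array with the high GAPDH 3' signal, whose part in these values was not tested. Without array 1, 2 genes passed as lower, and without array 2, 4 passed as higher and 3 as lower. All 41 genes had their highest jejunal group mean at 72 h, while the lowest was at 0 h for 14 genes, at 1 h for 6, at 6 h for 6 and at 24 h for 15.

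Against 24 h, which uses no 0 h array, 36 of 41 genes rose in the jejunum at 72 h and 0 fell, with 8.77% of all probe sets called higher, 4.15% lower and 12.9% in either direction. The median was 0.68, and 9 genes rose 2-fold or more. Fbl read 10.86 and 10.72 at 72 h (1.69 ± 0.30, limma adjusted p = 0.00823), Nhp2 11.21 and 11.17 (1.40 ± 0.19, limma adjusted p = 0.00302), and Ncl rose by 1.40 and Ebna1bp2 by 1.38. The smallest past the threshold were Nle1 at 0.34, Nop2 at 0.38, Rrp9 at 0.38 and Imp4 at 0.42. Rrs1, Ftsj3, Bysl, Nolc1 and Nob1 did not pass, at 0.33 to 0.52. The count was 18 without 72 h array 1 and 20 without 72 h array 2, and 17 genes passed whichever array was left out.

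**Figure D3:**
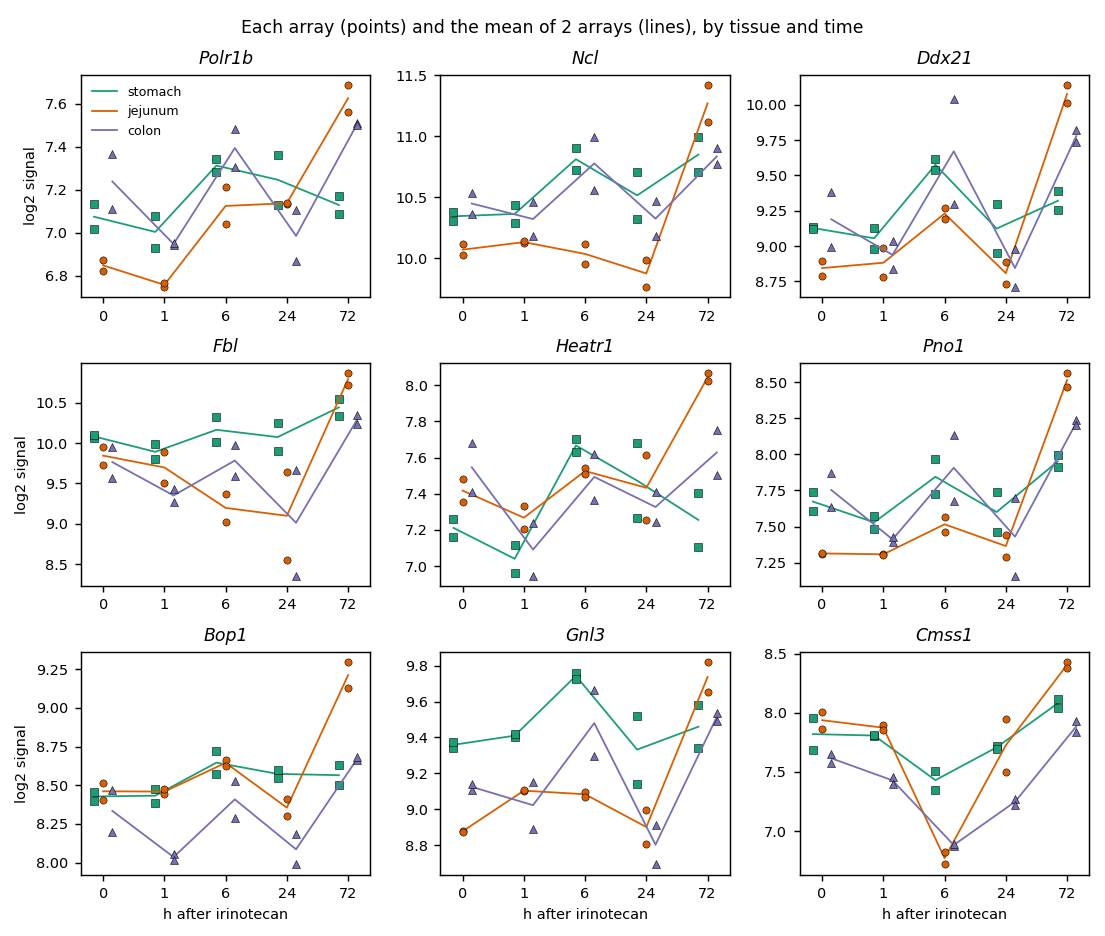
Log2 signal (vertical axis) against hours after irinotecan (horizontal axis, evenly spaced) for 9 ribosome biogenesis genes in stomach (squares), jejunum (circles) and colon (triangles); points are arrays and lines join the means of 2 arrays. In the jejunum the 72 h mean is the highest of the 5 times in every panel, Ncl reaching 11.42 and 11.12, and the mean of Cmss1 is lowest at 6 h in all 3 tissues.

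In the colon Cmss1 at 6 h was the only 1 of the 41 genes to pass against 0 h at any time. At 1 h, 0 of 41 passed by limma, and 0% of all probe sets were called. An unadjusted p under 0.05 was found for 8 of the 41 genes and for 14.9% of all probe sets. Of the 41 genes 39 lay below 0, with a median of -0.18, while 52.8% of all probe sets lay above 0. Heatr1 was closest, at 7.41 and 7.68 at 0 h and 6.95 and 7.24 at 1 h (-0.45 ± 0.15, limma adjusted p = 0.292). At 6 h, 1 gene fell, with 0.986% of probe sets called lower, 0.2% higher and 1.19% in either direction, and the median was 0.14. That gene was Cmss1, at 7.58 and 7.65 at 0 h and 6.87 and 6.89 at 6 h (-0.73 ± 0.10, limma adjusted p = 0.00493). Its call was lost without 0 h array 2 and without 6 h array 1. In the stomach at 6 h Cmss1 read 7.51 and 7.35 against 7.68 and 7.96 at 0 h (-0.39 ± 0.11, limma adjusted p = 0.333), so its 6 h arrays lay below the 0 h arrays in all 3 tissues, past the threshold in 2 of them. At 24 h, 0 of 41 passed by limma, and 1.14% of all probe sets were called (0.854% lower). An unadjusted p under 0.05 was found for 9 of the 41 genes and for 16.7% of all probe sets. Of the 41 genes 37 lay below 0, with a median of -0.22, while 55.3% of all probe sets lay above 0. The closest were Cmss1 at -0.37 ± 0.10 (limma adjusted p = 0.103), Nop58 at -0.49 ± 0.14 (limma adjusted p = 0.126) and Nop56 at -0.37 ± 0.12 (limma adjusted p = 0.182). Without 24 h colon array 2, 3 genes passed as lower.

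At 72 h in the colon, 0 of 41 genes passed against 0 h by limma, with 1.32% of all probe sets called (0.892% higher). An unadjusted p under 0.05 was found for 17 of the 41 genes and for 17.2% of all probe sets. In the same comparison 40 of 41 lay above 0, against 46.5% of all probe sets, with a median of 0.27. For 32 genes both 72 h arrays lay above both 0 h arrays, against 22.1% of all probe sets. The smallest p were those of Gnl2 at 7.11 and 7.08 at 0 h and 7.71 and 7.55 at 72 h (0.54 ± 0.15, limma adjusted p = 0.101), Mybbp1a at 0.44 ± 0.13 (limma adjusted p = 0.136) and Nip7 at 0.48 ± 0.15 (limma adjusted p = 0.146). The second probe set of Gnl2 lay at 0.03 here (limma adjusted p = 0.923), so the value of Gnl2 depends on the probe set. With the doubted colon arrays left out (6 h array 1, 24 h array 1 and 72 h array 2), 6 genes rose, in a fit that kept 24 h array 2 and 72 h array 1 with their gastric transcripts.

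Against 24 h, 15 of 41 genes rose in the colon at 72 h and 0 fell, with 4.4% of probe sets called higher, 2.33% lower and 6.73% in either direction, and the median was 0.48. Fbl read 8.36 and 9.67 at 24 h and 10.35 and 10.24 at 72 h (1.28 ± 0.33, limma adjusted p = 0.045), so its 24 h arrays differed by more than the groups' means. Nhp2 rose by 1.15, Ddx21 by 0.93 and Nip7, a factor acting in both subunits' maturation, by 0.90. All 3 box C/D genes passed, as did 2 of 3 box H/ACA genes, 2 of 3 PeBoW genes and 0 of 7 early small-subunit genes. All 15 of these genes were among the 36 that rose in the jejunum between 24 and 72 h, which is 100% of the colon's and 41.7% of the jejunum's calls. Other measures differed between these arrays too. The GAPDH 3' excess was 0.346 and 0.385 at 24 h and -0.058 and 0.099 at 72 h. Summed log2 signals at 24 h and 72 h were 11.27 to 12.42 and 8.36 to 10.14 for gastric surface mucous genes (2 of 4 fell), 15.54 to 15.82 and 15.27 to 15.33 for smooth muscle (5 of 10 fell), and 14.45 to 14.61 and 13.83 to 14.02 for colonocytes (1 of 4 fell). The part of these measures in the 15 calls was not tested. The smallest of the 15 past the threshold were Tsr1 and Polr1b at 0.52, Bop1 at 0.59 and Wdr12 at 0.60. The other probe sets of Ddx21 and Nop56 passed too, at 0.92 and 0.86. Gnl2 was among the 15 at 0.65, but its second probe set lay at -0.19 (limma adjusted p = 0.328). The count was 1 without 24 h array 1, 1 without 72 h array 1 8 without 72 h array 2 and 2 without all the doubted arrays, and only Cmss1 (0.64 ± 0.10, limma adjusted p = 0.00827) passed whichever array was left out.

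In the stomach 0 of 41 genes passed by limma at any time. The counts at an unadjusted p under 0.05 were 3 at 1 h, 19 at 6 h, 1 at 24 h and 11 at 72 h. For 72 h against 24 h the count was 9. In the same order, the shares of all probe sets at that unadjusted threshold were 5.72%, 8.83%, 8.34%, 7.56% and 15%. The shares called after adjustment were 0.0161%, 0.0322%, 0.0161%, 0.00644% and 0.00322%. At 6 h the background was 0.0226% higher and 0.00966% lower. In that comparison 36 of 41 genes lay above 0, against 52.8% of all probe sets, with a median of 0.24. For 32 genes both 6 h arrays lay above both 0 h arrays, against 22.8% of all probe sets. The smallest p were those of Ftsj3, a ribosomal RNA methyltransferase, at 0.42 ± 0.09 (limma adjusted p = 0.18), Rrp12, an export factor, at 0.60 ± 0.14 (limma adjusted p = 0.219) and Wdr43, which read 7.92 and 7.89 at 0 h and 8.22 and 8.28 at 6 h (0.34 ± 0.10, limma adjusted p = 0.321). For 23 genes the highest stomach mean was at 6 h and for 15 at 72 h. At 72 h Ebna1bp2 read 8.98 and 9.03 at 0 h and 9.44 and 9.78 (0.60 ± 0.14, limma adjusted p = 0.605). Without the pancreas-bearing 72 h array and 24 h array 1, 1 gene rose at 6 h and 3 rose at 72 h.

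The difference between tissues in the response at 72 h was tested itself. The response was larger in the jejunum than in the colon for 41 of 41 genes, against 44.9% of all probe sets. All 41 were read on the same arrays, so their directions are not independent. The median difference was 0.43, but only Wdr43 passed (0.78 ± 0.16, limma adjusted p = 0.0315). Of all probe sets 0.535% were called higher and 0.886% in either direction. The other probe set of Wdr43 lay at 0.26 ± 0.14 in this contrast (limma adjusted p = 0.334), so the call depends on the probe set. Ncl had a difference of 0.82 ± 0.23 (limma adjusted p = 0.0865). Leaving out any of the 8 arrays of this contrast but 72 h colon array 2 ended the call, and quantile normalization did so too, while without the doubted arrays 11 genes passed. Against the stomach, 8 of 41 genes had a larger response in the jejunum and 0 a smaller, with 1.99% of probe sets called higher and 2.75% in either direction. They were Ddx21 (1.04 ± 0.25, limma adjusted p = 0.0329), Tsr1 (0.96), Pno1 (0.92), Gnl2 (0.82), Wdr43 (0.79), Gnl3 (0.76), Polr1b (0.72) and Bop1 (0.61). The other probe set of Wdr43 passed here too, at 0.54 (limma adjusted p = 0.0443), and that of Gnl2 did not, at 0.06 (limma adjusted p = 0.861). This count was 0 without 0 h stomach array 1, 3 without 0 h stomach array 2, 2 without 0 h jejunum array 1, 0 without 0 h jejunum array 2, 1 without 72 h jejunum array 1 3 without 72 h jejunum array 2 and 15 without the doubted arrays. At 6 h, 0 of 41 genes differed in response between jejunum and colon or between jejunum and stomach by limma. The shares of all probe sets called were 0.393% and 0.11% (0.29% and 0.087% higher). In each contrast 3 genes had an unadjusted p under 0.05, against 17.1% and 11.2% of all probe sets. Both 72 h contrasts use the jejunal 0 h arrays.

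Before treatment the 3 tissues differed in a minority of these genes. Between jejunum and colon 2 genes were higher in the jejunum, Rrp9 and Cmss1 at 0.32 each, and 6 were lower, of which Tsr1 at -0.59 (jejunum 8.77 and 8.58, colon 9.20 and 9.32) and Pes1 at -0.58 lay furthest. Across all probe sets 45.7% were called in this comparison. Between jejunum and stomach 8 genes were lower in the jejunum and 0 higher, with 32.2% of all probe sets called. Imp3, a protein that binds the U3 small nucleolar RNA, read 8.22 and 8.24 in the jejunum and 9.36 and 9.37 in the stomach (-1.14 ± 0.18, limma adjusted p = 6.25e-05), and Tsr1 and Ltv1 lay at -0.86 and -0.73. Between colon and stomach 4 genes were lower in the colon, Imp3 (-0.81), Ltv1 (-0.51), Imp4 (-0.40) and Rrp9 (-0.28), with 33.1% of all probe sets called. The shares of these genes called were 19.5%, 19.5% and 9.76%, each below the background. The other genes lower in the jejunum than in the colon were Pno1, Wdr43, Gnl2 and Polr1b, and of all 8 calls between these tissues only that of Pes1 held whichever array was left out. The other probe sets of Wdr43 and Gnl2 lay at -0.07 and 0.16 and did not pass. With quantile normalization 4 genes were higher and 3 lower in the jejunum than in the colon. For jejunum against colon 4 genes passed without jejunum array 1, 4 without jejunum array 2, 5 without colon array 1, 3 without colon array 2 and 18 without the doubted arrays, which changes the estimate of the spread. For jejunum against stomach 5 passed without stomach array 1, 5 without stomach array 2, 4 without jejunum array 2 and 13 without the doubted arrays. For colon against stomach 2 passed without stomach array 1, 2 without stomach array 2, 1 without colon array 1 and 12 without the doubted arrays.

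Most of the wider pathway also rose in the jejunum at 72 h. Of 133 other ribosome biogenesis genes 124 were measured, and 79 rose and 0 fell against 0 h, with a median of 0.46. Across all probe sets 11.9% were called higher and 12% lower. The counts higher were 9 of 17 for other genes of RNA polymerase I and ribosomal DNA transcription and 6 of 9 for other snoRNP genes. They were 31 of 43 for other small-subunit genes, 26 of 45 for other large-subunit genes and 7 of 11 for the exosome, which trims precursor ends. The RNA polymerase I list includes subunits shared with other polymerases. Fcf1 was counted in both the small-subunit and the large-subunit list. Emg1, an 18S ribosomal RNA methyltransferase, stood furthest, at 8.21 ± 0.14 (SD, n = 2) at 0 h and 9.35 ± 0.0051 at 72 h (1.14 ± 0.10, limma adjusted p = 0.000584), followed by the small-subunit processome genes Utp15 at 1.05 and Wdr36 at 0.98 and the 5S particle factor Rpf2 at 0.93. Between 24 and 72 h, 83 of the 124 rose in the jejunum and 19 in the colon, where 1 fell. That gene, Ubtf, encodes the upstream binding factor of RNA polymerase I and lay at -0.40 ± 0.09 (limma adjusted p = 0.0361). Brix1 rose there by 0.82 and Aatf by 0.84. Across all probe sets 8.77% were called higher between 24 and 72 h in the jejunum. For the colon 4.4% were called higher and 2.33% lower. At 6 h in the jejunum 1 of the 124 rose, against 2.3% of all probe sets called higher. It was Urb1, at 0.45 ± 0.09 (limma adjusted p = 0.0362).

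Myc itself read 8.52 and 8.36 at 0 h and 8.89 and 9.02 at 72 h in the jejunum (0.52 ± 0.16, limma adjusted p = 0.0426), and its 72 h arrays lay above all other jejunum arrays. Mxi1, which competes with MYC for its partner MAX, fell in the jejunum at 72 h by 0.44 on the log2 scale (limma adjusted p = 0.0084) and in the colon at 72 h by 0.73 (limma adjusted p = 0.0205). In the stomach Myc read 8.68 and 8.72 at 0 h, 9.47 and 9.31 at 1 h and 9.18 and 9.26 at 6 h, with differences of 0.69 (limma adjusted p = 0.219) and 0.52 (limma adjusted p = 0.157). Of the 11 genes of the MYC network, 1 rose and 1 fell in the jejunum at 72 h. Of all probe sets 11.9% were called higher and 12% lower in this comparison.

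Genes of mitosis rose in the 72 h jejunum and fell earlier. In the jejunum at 72 h 17 of 20 mitosis genes rose, with a median of 0.68, and the log2 of their summed signal was 13.57 to 13.58 against 12.79 to 12.99 at 0 h. At 6 h, 15 of 20 fell in the jejunum (median -0.66) and 19 of 20 in the colon (median -1.29), and at 24 h 18 of 20 fell in the colon (median -1.33), while the 41 ribosome biogenesis genes had medians of 0.09, 0.14 and -0.22. Between 24 and 72 h in the colon 19 of 20 mitosis genes rose. The part of cell division in the 72 h values was not tested.

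**Figure D4:**
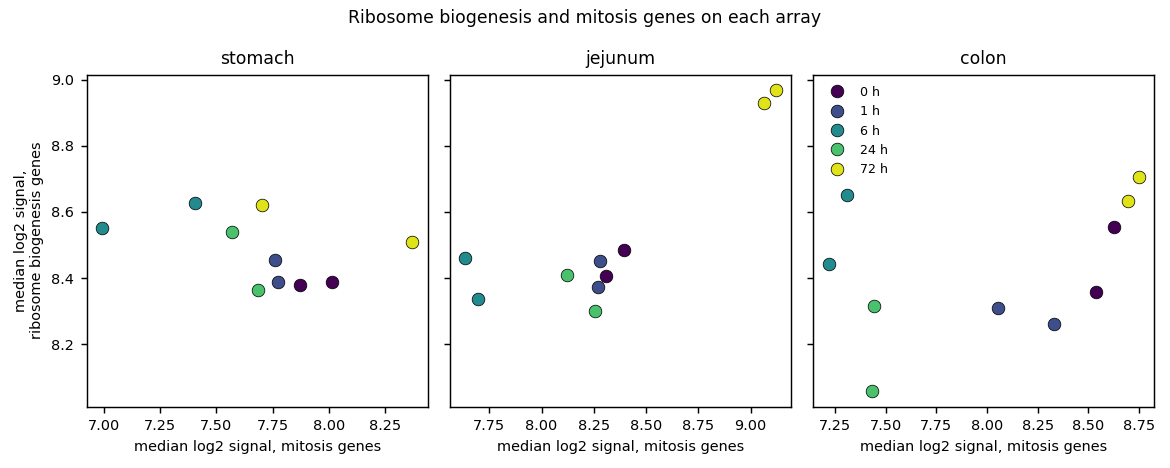
Median log2 signal of the 41 ribosome biogenesis genes (vertical axis) against that of 20 mitosis genes (horizontal axis) on each of the 10 arrays of each tissue, coloured by time. In the jejunum the 72 h arrays stand apart at 8.97 and 8.93, and in the colon the 6 h arrays lie at 8.44 and 8.65 with mitosis medians of 7.22 and 7.31.

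Markers of other cell types also differed in the 72 h jejunum. Of 10 smooth muscle genes 3 rose, with a summed log2 signal of 14.63 to 14.72 against 13.89 to 14.11 at 0 h. Of 10 macrophage genes 4 rose and 1 fell, with sums of 13.79 to 13.93 against 13.58 to 13.66. Of 4 measured colonocyte genes 3 fell, with sums of 10.09 to 10.25 against 10.92 to 11.06. Of 6 enterocyte genes 0 passed by limma. An unadjusted p under 0.05 was found for 2 of the 6 and for 39.9% of all probe sets. Pancreatic acinar genes summed to 11.05 to 11.08 at 72 h and 11.12 to 11.15 at 0 h in the jejunum, with 4 of 16 genes lower and 0 higher. The part of shifts in smooth muscle, macrophages and colonocyte genes in the jejunal result was not tested.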

How the data were processed

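Groups and replicate numbers follow the titles. The deposited values are log2 signals, which the submitters' processing notes credit to RMA. No version is stated, nor whether all 30 arrays went through 1 run. The array's 57 control probe sets were dropped from the 31099. Within each tissue the 10 arrays were fitted together with limma 3.58.1 (R 4.3.3), and tissue contrasts used 1 fit of 30 arrays. Tests are two-sided. The 30-array fit takes no account of the rats that tissues share. Each replicate is a pool of 3 rats, and the number of arrays limits the precision. Figures and promoter searches used Python 3.11.15 with matplotlib 3.10.9. The within-tissue fits were also run on simulated noise, independent between arrays, with known changes added. Those data held no shared rats and no neighbouring tissue, so they do not test the fits for either.

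The members and all lists were chosen with earlier results of these data known. Every member could be named; values on each array were given for set members of each role, and per comparison for up to the 4 highest and 4 lowest past the threshold or the 3 smallest p. Other pathway genes were named only among the 4 highest or lowest, while Myc could be named in every comparison. Alternatives were dropping dim probe sets, quantile normalization, the mean of a gene's probe sets, a replicate block, 1 fit of 30 arrays and leaving out each array. Leaving out 6 doubted arrays was chosen after seeing the data.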

Additional observations from a re-analysis of the deposited data

Results flagged for a closer look

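The response at 72 h differed between tissues by a test of the difference itself in 2 contrasts. Between jejunum and colon 1 of 41 ribosome biogenesis genes passed, Wdr43, at 0.78 ± 0.16 (limma adjusted p = 0.0315), with 0.886% of all probe sets called. Its other probe set lay at 0.26 (limma adjusted p = 0.334), and the call was lost in 7 of 8 fits that left out 1 array and with quantile normalization. Between jejunum and stomach 8 of 41 passed, led by Ddx21 at 1.04 ± 0.25 (limma adjusted p = 0.0329), with 2.75% of all probe sets called and 0 to 7 genes passing when 1 array was left out.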

How the results depend on the processing

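Of 1227 refits of the 122 genes called over all comparisons, 932 passed in the same direction, 295 kept the direction without passing and 0 turned sign. For the jejunum at 72 h against 0 h the count was 29 with quantile normalization, 34 with a replicate block and 38, 39 or 41 in the other settings with every compared array in. Leaving out 1 array gave 20 to 25 there and 18 to 40 for 72 h against 24 h, 1 to 22 for the colon at 72 h against 24 h, 0 to 0 for the jejunum at 6 h, 0 to 7 at 24 h, 0 to 1 for the colon at 6 h, 0 to 3 at 24 h, 0 to 1 and 0 to 7 for the 72 h contrasts with colon and stomach, and 3 to 5, 4 to 8 and 1 to 5 for untreated jejunum against colon, jejunum against stomach and colon against stomach. Dropping dim probe sets or quantile normalization each gave 1 gene for the 6 h contrast of jejunum and stomach; quantile normalization also gave 0 for the 72 h contrast with the colon, 7 for untreated colon against stomach, and 7 for untreated jejunum against colon with 4 higher and 3 lower. The fit of 30 arrays gave 1 in the stomach at 6 h, 2 in the colon at 6 h and 1 in the colon at 72 h. With the 6 doubted arrays left out the counts were 1 and 3 in the stomach at 6 and 72 h, 8 and 2 in the jejunum at 6 and 24 h (5 higher and 3 lower at 6 h), 0 and 6 in the colon at 6 and 72 h, 2 for 72 h against 24 h there, 1 for the 6 h contrast with the stomach, 11 and 15 for the 72 h contrasts with colon and stomach, and 18, 13 and 12 (7 higher, 5 lower) for the untreated contrasts. Leaving out arrays leaves fewer residual degrees of freedom, and a lone array is assumed to vary like the others; otherwise the cause was not tested. The labels do not say whether arrays with the same number hold the same rats. Deviations of same-numbered arrays correlated at -0.215 to 0.503 between tissues, over 0.1 in 5 of 15 pairs. Among them were all 3 pairs at 24 h (0.319 to 0.503). Between times within a tissue, where the rats differ, the correlations were -0.582 to 0.434, over 0.1 in 11 of 30 pairs. With such a spread between different rats, these values cannot settle whether same-numbered arrays share rats. The main fits used no replicate block. The block gave 1 gene in the jejunum at 6 h and changed no other count by over 1.5 times.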
